A study of Mus musculus with 2 samples.

Results

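Potassium channel genes were taken as the protein-coding genes whose GENCODE mouse symbol begins with Kcn, followed by letters and a digit. In all, 93 genes carried such a symbol, 4 of them (Kcnq1, Kcne2, Kcnj8 and Kcnn3) were left out by the rule, and the other 89 were found in the gene tables of both libraries, out of 21474 protein-coding genes with a symbol. They were sorted by symbol into 39 voltage-gated pore-forming genes, 14 inward rectifiers, 14 two-pore channels, 7 calcium-activated channels and their relatives, 11 accessory subunits of voltage-gated channels and 4 accessory subunits of calcium-activated channels. The rule uses no measured value.

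The tissue was whole stomach of B6NCrl mice at embryonic day 16.5, the strain and age of every embryo. Total RNA was sequenced from 2 biological replicates, each a pool of stomachs of male and female embryos; 41 embryos were named for replicate 2 and no number was given for replicate 1. Healthy embryos formed the only group, and no treatment or altered allele was named for it. No conditions could be compared, and with 2 libraries an exact sign-flip test cannot go below a two-sided p of 0.5, so differences are set beside the spread between the pools and carry no p-value.

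Potassium channels let potassium ions leave the cell along their gradient and thereby hold the membrane potential negative. Voltage-gated channels open on depolarization, inward rectifiers pass current best at negative potentials, two-pore channels carry background leak current, and calcium-activated channels open when intracellular calcium rises. In the gut wall they set the resting potential and the slow waves of smooth muscle, and in the gastric epithelium they return potassium to the lumen for the proton pump. Their pore is lined by a short loop whose backbone oxygens coordinate the ion, the selectivity filter, in which a glycine, an aromatic residue and a second glycine follow each other.

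The codons of that loop are a sequence that most pore-forming members share, and they show how the two-pore family, which held the most abundant member, is built. Each line gives the 27 bases of coding sequence (5′ to 3′, sense strand, GENCODE M21 on GRCm38) around a match to codons for threonine, any residue, glycine, then tyrosine, phenylalanine or leucine, then glycine; the capitals mark the last 3 of these codons.
Kcnk1, first pore (chr8:125995802-126025025, plus strand, interrupted by an intron): ctctccaccacaGGCTATGGCcacacg
Kcnk1, second pore (chr8:126025323-126025349, plus strand): ctgagcaccatcGGCCTGGGGgactat
Kcnk5, second pore (chr14:20144642-20144668, minus strand): atctccaccattGGCTTTGGGgacttt
Kcnk3, second pore (chr5:30622196-30622222, plus strand): ctcaccaccatcGGCTTCGGCgactat
Kcna5 (chr6:126533739-126533765, minus strand): atgaccactgtaGGCTACGGGgacatg
Kcns3 (chr12:11091569-11091595, minus strand): atgaccacagtgGGCTATGGAgacacc
Kcnma1 (chr14:23528407-23528433, minus strand): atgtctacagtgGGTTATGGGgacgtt
All 14 two-pore genes held 2 such runs, and no other member held more than 1. The family is named for its 2 pores, so this describes the family and tests nothing. For Kcnk1, Kcnk6 and Kcnk7 the second run was counted only because the pattern allowed leucine. In all 14 the codons of the first pore were interrupted by an intron, and in none of the 14 were those of the second. An intron also interrupted the codons of the voltage-gated genes Kcnd1, Kcnd2 and Kcnd3, so this was not found in two-pore genes alone. The middle capital codon of the second pore encoded phenylalanine in 11 two-pore genes and leucine in the other 3, which were Kcnk1, Kcnk6 and Kcnk7; in the first pore it encoded tyrosine in 11 and phenylalanine in 3. One run was found in 32 of 39 voltage-gated genes, 12 of 14 inward rectifiers and 4 of 7 calcium-activated genes. The 7 voltage-gated genes without a run were all of the Kcnh group, and among the calcium-activated genes Kcnn1, Kcnn2 and Kcnu1 had none; the absence says only that these codons were not in the transcript searched.

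Levels are given as TPM, a length-corrected share of the transcript pool that can be compared between genes, first for replicate 1 and then for replicate 2 or as mean ± SD with n = 2 libraries. A gene was counted as detected when it reached 1 TPM or more in both libraries. Of the 89 members, 34 were detected (38.2%), against 64.3% of all protein-coding genes. The median member stood at 0.685 ± 0.0495 TPM and the median protein-coding gene at 5.60 ± 0.0141 TPM. Most potassium channel genes were thus low in this tissue: 52 members were below the threshold in both libraries, 17 had a mean under 0.1 TPM, and 4 reached a mean of 10 TPM or more. Another 3 members reached the threshold in 1 library only: Kcnmb2 and Kcnn2 in replicate 1 and Kcne1 in replicate 2. The detected member nearest to the threshold was Kcnq5, at 1.23 and 1.07 TPM. A set of 46 other cation channel genes (sodium, calcium, pacemaker and TRP channels) had 17 detected genes (37.0%). That set holds pore-forming genes only. Of the pore-forming potassium channel genes, 23 of 74 were detected (31.1%), and the 38.2% of all members includes accessory subunits. In a bulk sample of whole stomach, fewer cells of a type and less RNA per cell cannot be told apart.

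Accessory subunits were detected in 11 of 15 cases (73.3%) and pore-forming subunits in 23 of 74 (31.1%). Among pore-forming families, 7 of 14 two-pore genes, 3 of 7 calcium-activated genes (42.9%), 11 of 39 voltage-gated genes (28.2%) and 2 of 14 inward rectifiers (14.3%) were detected. Of the accessory subunits, 9 of 11 voltage-gated (81.8%) and 2 of 4 calcium-activated ones were detected.

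**Figure D1:**
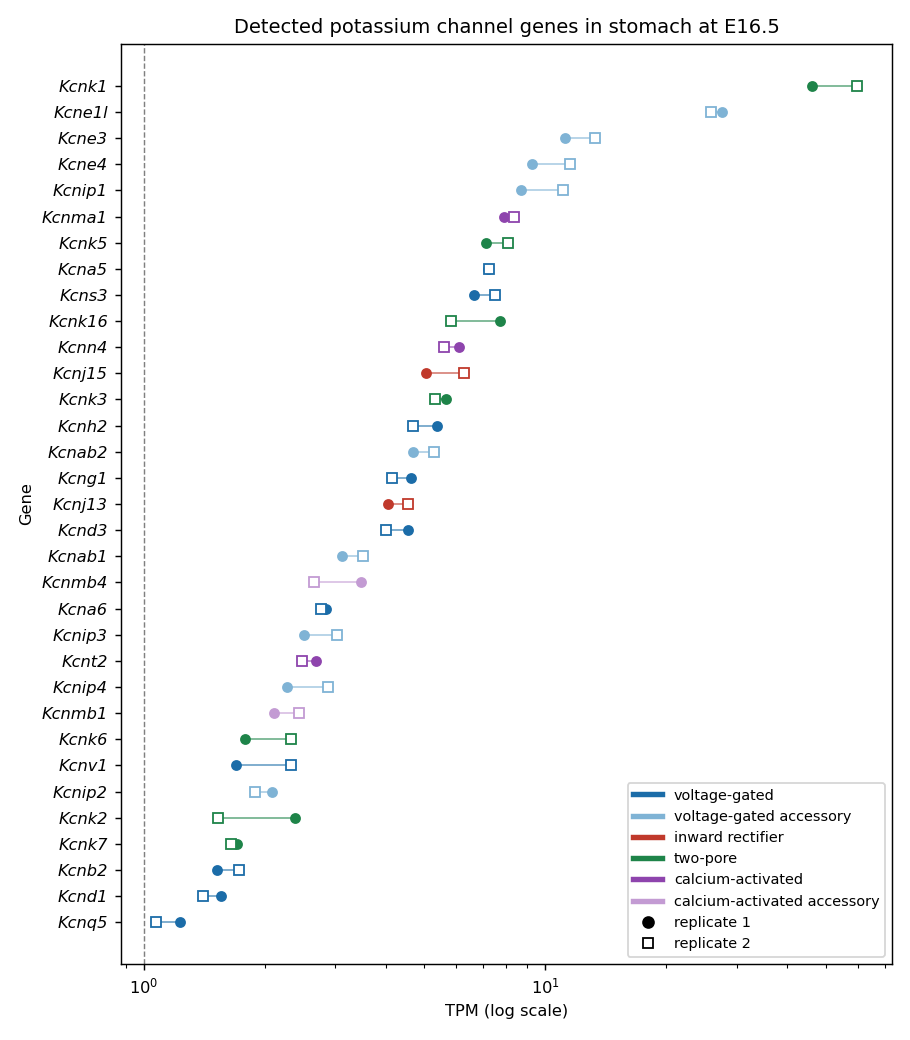
TPM of the detected potassium channel genes on a log axis, without 1 that is not reported here, filled circles for replicate 1 and open squares for replicate 2, coloured by family and ordered by mean; the dashed line is 1 TPM. Kcnk1 stands apart at 46.12 and 59.88 TPM, Kcne1l follows at 27.62 and 25.86, and most other genes lie below 10 TPM with the 2 libraries close to each other.

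The two-pore family was led by a single gene. Kcnk1 (ENSMUSG00000033998; chromosome 8, 125995170 to 126030685, plus strand), which encodes the weakly rectifying leak channel TWIK-1, had 46.12 TPM in replicate 1 and 59.88 TPM in replicate 2, from 3117 and 2263 expected counts. It was the highest of the 89 members in both libraries and ranked 2951 among the 21474 protein-coding genes by mean TPM. Kcnk1 alone made up 62.7% of the summed TPM of its family in replicate 1 and 69.7% in replicate 2, and 19.7% and 23.5% of the sum over all members. Without it the other two-pore genes summed to 27.38 and 26.03 TPM. The antisense gene Gm45875 overlaps 8.01% of the exon bases of Kcnk1 in GENCODE M21 and had no value in the tables used here. The 6 stomach epithelium markers were also higher in replicate 2, with summed TPM of 4658.22 and 7526.46, and their part in the difference in Kcnk1 was not tested.

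The next 3 two-pore genes stood well below Kcnk1. Kcnk5, which encodes the alkaline-activated channel TASK-2, had 7.11 and 8.05 TPM. Kcnk16, which encodes TALK-1, a channel best known from pancreatic islets, had 7.69 and 5.83 TPM. Its gene model in the tables was 879 bases long against 876 coding bases, so it held almost no untranslated sequence, and how far this moved its TPM was not tested. Islet markers were present in both libraries (4 of 4 detected, summed TPM 447.06 and 386.33, Ins2 at 340.01 and 293.23), with their part in the level of Kcnk16 not tested. Kcnk3, the gene of the acid-sensitive channel TASK-1, had 5.65 and 5.31 TPM. The ranges of Kcnk5, Kcnk16 and Kcnk3 were 7.11 to 8.05, 5.83 to 7.69 and 5.31 to 5.65 TPM, so Kcnk5 and Kcnk16 overlapped each other while Kcnk3 lay below both.

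Lower still were Kcnk6, the gene of TWIK-2, at 1.79 and 2.32 TPM, the mechanically gated TREK-1 gene Kcnk2 at 2.38 and 1.53 TPM, and Kcnk7, whose product gives no known current alone, at 1.71 and 1.65 TPM. All 3 genes whose second pore carries leucine (Kcnk1, Kcnk6 and Kcnk7) were detected, as were 4 of the 11 that carry phenylalanine and 7 of all 14. A link between residue and detection was not tested, and 3 genes are too few to draw a conclusion from. The other 7 two-pore genes were below 1 TPM in both libraries, from Kcnk10 at 0.41 and 0.72 TPM down to Kcnk9 and Kcnk15, which had no counts in either; a count of 0 allows up to 3 counts.

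Kcnk5 and Kcnk16 lie near each other on chromosome 14, both on the minus strand with 79.57 kb between them. They had similar levels, yet the sequence before their starts differed. The 250 bases before each RefSeq start are shown (GRCm38.p6, gene strand, 5′ to 3′) with every CG dinucleotide in capitals. Also shown are those before the more CpG-rich of 2 listed starts of Kcnj6, a G-protein-gated inward rectifier gene that was not detected.
Kcnk5 (chr14:20181783-20182032, minus strand): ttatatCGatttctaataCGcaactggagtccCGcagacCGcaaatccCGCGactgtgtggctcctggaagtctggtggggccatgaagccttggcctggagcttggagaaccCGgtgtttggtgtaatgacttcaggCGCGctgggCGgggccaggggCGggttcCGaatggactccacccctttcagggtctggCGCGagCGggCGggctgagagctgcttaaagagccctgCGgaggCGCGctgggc
Kcnk16 (chr14:20269270-20269519, minus strand): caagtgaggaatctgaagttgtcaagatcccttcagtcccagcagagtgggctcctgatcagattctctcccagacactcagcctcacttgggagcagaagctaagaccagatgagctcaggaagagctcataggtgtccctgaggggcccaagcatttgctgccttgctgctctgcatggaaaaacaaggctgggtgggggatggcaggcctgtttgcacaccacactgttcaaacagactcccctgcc
Kcnj6 (chr16:94997697-94997946, minus strand): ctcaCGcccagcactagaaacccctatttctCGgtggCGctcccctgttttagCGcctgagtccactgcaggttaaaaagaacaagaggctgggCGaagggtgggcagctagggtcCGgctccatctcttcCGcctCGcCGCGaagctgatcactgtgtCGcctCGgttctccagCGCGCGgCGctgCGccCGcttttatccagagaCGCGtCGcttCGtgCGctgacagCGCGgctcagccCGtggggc
The Kcnk5 stretch held 19 CG dinucleotides and the Kcnk16 stretch held 0. Kcnj6 held 26 CG dinucleotides and was at 0.12 and 0.02 TPM. Kcnj6 was picked after its values were seen. Among undetected members with a promoter entry it had the highest observed over expected CpG ratio around a listed start (1.04). Its other listed start had a ratio of 0.303. Finding CpG-rich sequence at this undetected gene was therefore fixed by the choice. CpG-free sequence was found before the start of Kcnk16, which was detected. These picked genes cannot show how CpG content goes with detection.

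**Figure D2:**
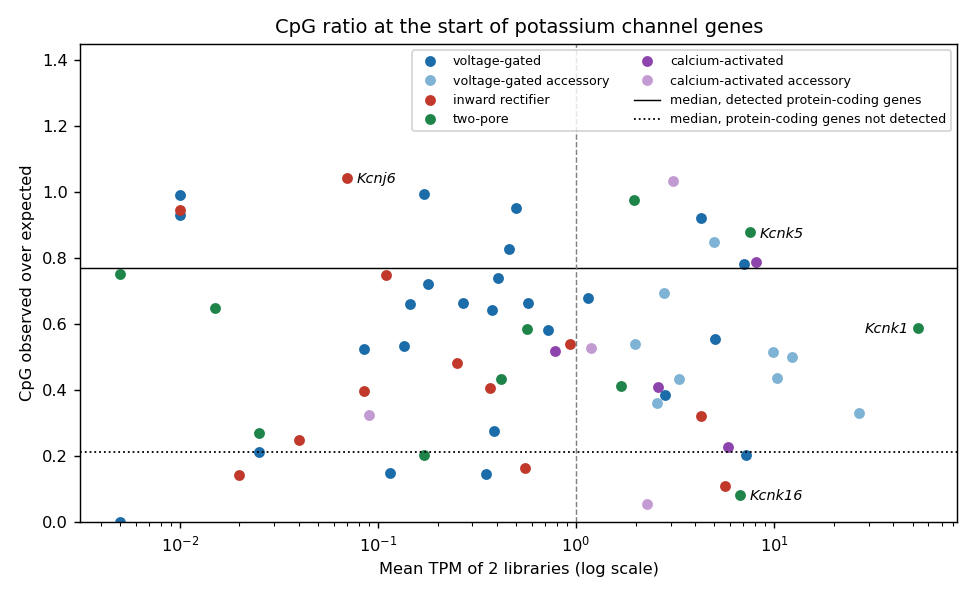
Observed over expected CpG ratio in the 300 bases around the start (250 before, 50 after), against mean TPM on a log axis. Shown are the 65 members with a RefSeq promoter entry, with genes at 0 drawn at the left edge (0.005). Colours mark families and the vertical dashed line is 1 TPM. The solid horizontal line is the median of detected protein-coding genes (0.770), and the dotted one that of protein-coding genes not detected (0.214). Members on both sides of 1 TPM include low ratios (Kcnk16, 0.0823) and high ones (Kcnj6, 1.04).

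Promoter entries were found for 65 of the 89 members, 27 of the 34 detected and 38 of the 55 not detected. The median observed over expected CpG ratio was 0.499 in detected members and 0.537 in members not detected. Across all protein-coding genes the medians lay far apart, at 0.770 for 10773 detected genes and 0.214 for 5544 genes that were not. A ratio of 0.6 or more was found in 33.3% of detected and 42.1% of undetected members, and in 72.1% of detected and 15.8% of undetected protein-coding genes. The letters TATAAA, searched on both strands of every listed promoter of a gene, were found for 5 of 65 members (7.69%) and for 14.1% of all 16317 protein-coding genes with an entry, and the CArG box for 0 of 65 and for 1.77% of all. A match is a description of these letters, not of a factor bound there.

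Voltage-gated pore-forming genes made up the largest family, and no member of it dominated. Their summed level was 47.98 TPM in replicate 1 and 48.93 TPM in replicate 2, and the highest gene, Kcna5, took 15.0% and 14.8% of it. Kcna5 (chromosome 6, 126532551 to 126535412), the gene of the delayed rectifier Kv1.5 found in smooth muscle, had 7.21 and 7.22 TPM. Kcnh2, the gene of the ERG channel, which helps set the resting potential of gut smooth muscle, had 5.37 and 4.68 TPM. The A-type channel gene Kcnd3 had 4.54 and 4.02 TPM. From counts scaled between the libraries, the ratio of replicate 1 over replicate 2 was 1.02 for Kcna5, 1.32 for Kcnh2 and 1.17 for Kcnd3.

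Some of the detected voltage-gated genes encode so-called silent subunits, which form no channel alone and modify Kcnb-encoded Kv2 channels. Among the silent groups, 1 of 3 Kcns, 1 of 4 Kcng and 1 of 2 Kcnv genes were detected. Kcnf1, also a silent subunit gene, was not detected. In the whole voltage-gated family, 11 of 39 genes (28.2%) were detected. Kcns3 (Kv9.3) had 6.66 and 7.5 TPM and Kcng1 (Kv6.1) had 4.63 and 4.15 TPM. Kcnv1 (Kv8.1) had 1.70 and 2.32 TPM. The Kv2 pore gene Kcnb2 had 1.52 and 1.73 TPM, lower in each library than Kcns3 and Kcng1. Amigo1, which encodes a membrane partner of Kv2 channels, had 2.56 and 2.08 TPM.

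Of the remaining voltage-gated genes, the M-current relative Kcnq5 had 1.23 and 1.07 TPM. Kcna6, the gene of Kv1.6, had 2.84 and 2.76 TPM, with 39.6% of its exon bases shared with the antisense gene Gm26673 at 0.03 and 0 TPM, and Kcnd1, another Kv4 gene, had 1.56 and 1.40 TPM. No member of the fast-firing Kcnc group was detected, and its 4 genes summed to 0.88 and 0.70 TPM. In the Kcnh group Kcnh2 was the only one of 8 detected, in the Kcna group Kcna5 and Kcna6 were detected of 8. In the whole family, 28 of 39 genes were below 1 TPM in both libraries, and Kcna10 had no counts in either.

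**Figure D3:**
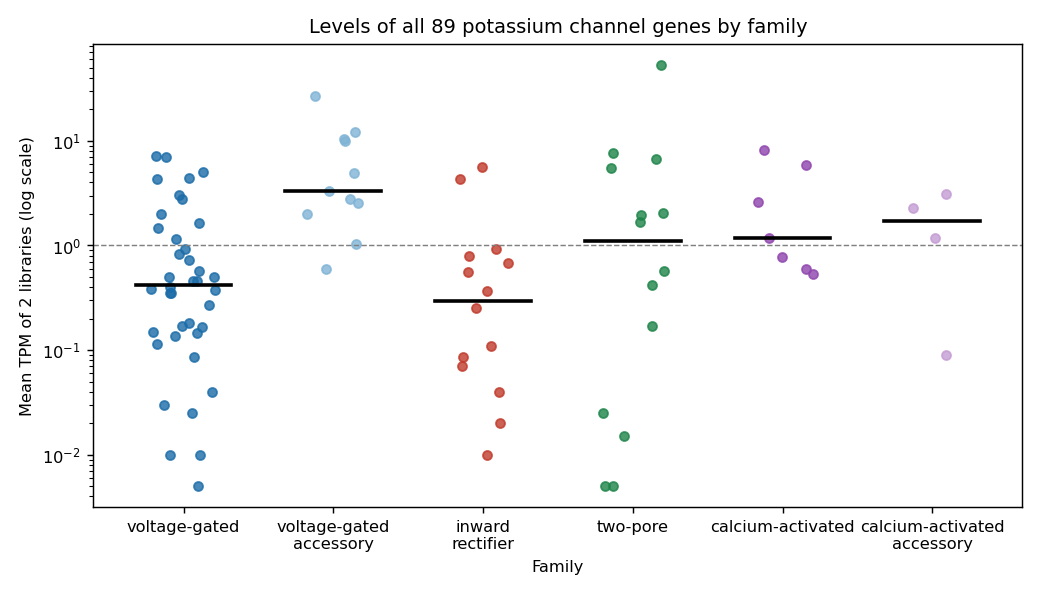
Mean TPM (log axis) of each of the 89 potassium channel genes by family; black bars are family medians, the dashed line is 1 TPM, and the 3 genes at 0 are drawn at 0.005. The median of the voltage-gated accessory subunits, 3.315 TPM, is the highest, and inward rectifiers have the lowest, 0.2975 TPM.

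The accessory subunits of voltage-gated channels summed to 72.87 and 80.13 TPM, more than the pore-forming voltage-gated genes in each library. Kcne1l (ENSMUSG00000090122; chromosome X, 142304752 to 142306294, minus strand), a single-pass subunit that shifts the gating of Kcnq1 channels, was the second highest member with 27.62 and 25.86 TPM. Kcne3, whose product holds Kcnq1 open in epithelia, had 11.2 and 13.3 TPM, and Kcne4, whose product inhibits several channels, had 9.29 and 11.49 TPM. Kcne1, the subunit of the slow cardiac delayed rectifier, had 0.74 and 1.32 TPM. The usual partner of these subunits, Kcnq1, is not a member here but had 8.14 and 8.45 TPM, and Kcne2, which pairs with it in acid-secreting cells, had 4.16 and 5.02 TPM. In each library Kcne1l and Kcne3 lay above Kcnq1, as did Kcne4 by TPM, but by posterior mean TPM Kcne4 (9.13) lay below Kcnq1 (9.22) in replicate 1.

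All 4 Kcnip genes, which encode calcium-binding partners of Kv4 channels, were detected. Kcnip1 led with 8.71 and 11.06 TPM, Kcnip3 had 2.51 and 3.02, Kcnip4 had 2.27 and 2.87 and Kcnip2 had 2.09 and 1.89 TPM. They summed to 15.58 and 18.84 TPM, against 6.56 and 5.77 TPM for the 3 Kv4 pore genes Kcnd1, Kcnd2 and Kcnd3. The other Kv4 partner genes, Dpp6 and Dpp10, had 1.84 and 1.42 TPM and 0.85 and 0.71 TPM. The cytoplasmic beta subunit genes Kcnab2 and Kcnab1, partners of Kv1 channels, had 4.68 and 5.27 TPM and 3.12 and 3.51 TPM. Kcnip4 shares 4.63% of its exon bases with 5730480H06Rik on the opposite strand, which had 12.41 and 11.48 TPM, and strand-specific counting is not given in the sources used here, so reads from the 2 genes may not be separable there. Kcnab3 was not detected, at 0.64 and 0.54 TPM.

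Inward rectifiers were the lowest pore-forming family by median and by summed level, with a sum of 13.23 and 14.5 TPM and only 2 detected genes. Kcnj15, the gene of Kir4.2, had 5.05 and 6.26 TPM and made up 38.2% and 43.2% of the family sum. Kcnj13, the gene of the epithelial channel Kir7.1, had 4.05 and 4.55 TPM; 49.1% of its exon bases overlap Gigyf2 on the opposite strand, which had 37.84 and 36.2 TPM, so its level is uncertain. Kcnj2, the gene of the strong rectifier Kir2.1, stayed just below the threshold at 0.97 and 0.90 TPM, and Kcnj14 had 0.80 and 0.78 TPM. The G-protein-gated channel genes Kcnj3, Kcnj5, Kcnj6 and Kcnj9 were all below 1 TPM in both libraries, as were 12 of the 14 inward rectifiers in all, down to Kcnj4 at 0.02 and 0 TPM.

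ATP-sensitive channels pair a Kcnj pore with a sulfonylurea receptor. Kcnj11 (Kir6.2) was not detected, at 0.70 and 0.65 TPM, while its receptor gene Abcc8, 3.76 kb away on chromosome 7, had 4.41 TPM in each library. The gene model of Kcnj11 was 1 transcript of only 1173 bases. How much untranslated sequence it left out, and how far this moved the TPM of Kcnj11, was not tested. The vascular pore gene Kcnj8, left out of the members, had 52.23 and 48.75 TPM, and the neighbouring receptor gene Abcc9, 16.25 kb away on chromosome 6, had 11.27 and 11.7 TPM. Adding the 4 left-out genes raised the inward rectifier sum to a mean of 64.355 TPM, so the low standing of this family by summed level rests on leaving out Kcnj8.

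Calcium-activated channels and their relatives summed to 19.75 and 19.49 TPM. Kcnma1 (chromosome 14, 23289431 to 24014491), the gene of the large-conductance BK channel that brakes smooth muscle contraction, had 7.90 and 8.34 TPM and took 40.0% and 42.8% of that sum. Kcnn4, the gene of the intermediate-conductance channel of epithelial and blood cells, had 6.08 and 5.60 TPM. The sodium-activated relative Kcnt2 had 2.69 and 2.47 TPM. Kcnn2, a small-conductance channel gene, had 1.41 and 0.94 TPM and so reached the threshold in only 1 library, and Kcnn3, a left-out gene of the same group, had 4.64 and 3.90 TPM. Below 1 TPM in both libraries were Kcnn1 at 0.70 and 0.86, the sperm channel gene Kcnu1 at 0.49 and 0.70, and Kcnt1 at 0.48 and 0.58 TPM. The range of Kcnma1 lay above that of Kcnn4, and that of Kcnn4 above that of Kcnt2.

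Partners of the BK channel were unequal. Kcnmb4, the beta subunit best known from neurons, had 3.48 and 2.66 TPM, and Kcnmb1, the smooth muscle beta subunit, had 2.11 and 2.43 TPM. Kcnmb2 had 1.44 and 0.94 TPM and Kcnmb3 0.04 and 0.14 TPM. Of the gamma subunits, Lrrc26, which lets BK open at rest in secretory epithelia, had 11.59 and 17.04 TPM, Lrrc55 had 1.70 and 2.37 TPM, and Lrrc38 and Lrrc52 were at or below 0.19 TPM in both libraries. Lrrc26 exceeded Kcnma1 itself in each library. Kcnmb1 lies within the span of Kcnip1 on the opposite strand of chromosome 11, with no shared exon bases in the annotation, while Kcnmb4 shares 20.9% of its exon bases with the antisense gene Kcnmb4os2, which had 0.46 and 0.20 TPM. In all, 6 of 9 partner genes outside the Kcn symbols were detected.

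Medians put the pore-forming families in the order calcium-activated, two-pore, voltage-gated, inward rectifier, at 1.175 ± 0.332, 1.0975 ± 0.0389, 0.415 ± 0.00707 and 0.2975 ± 0.0318 TPM. On the log2(TPM + 0.1) scale the calcium-activated median exceeded the two-pore median by 0.62 in replicate 1 and lay below it in replicate 2 (difference -0.15), so these 2 families did not differ beyond the spread between pools (mean difference 0.24 ± 0.55, SD, n = 2). Without the sodium- and pH-gated Kcnt and Kcnu genes, the mean difference was 1.36. The two-pore median was above the voltage-gated median by 1.05 ± 0.15, and the voltage-gated above the inward rectifier median by 0.39 ± 0.11, each larger than its SD and of 1 sign in both libraries. The last order depends on undetected genes: over detected members alone it turned round, with a difference of -0.64. Members of a family are not replicates, and these orders describe 2 libraries of 1 tissue.

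The pools were close to each other for most members, as for most protein-coding genes. The log2 ratio of replicate 1 over replicate 2, from scaled counts, could be taken for the 65 members that passed the low-count filter, and its median was 0.03, against 0.00 over all 17763 genes past the filter. Of these members, 34 were higher in replicate 1 and 31 in replicate 2. Within 0.5 of 0 on the log2 scale lay 59 of the 65, as did 14073 of the 15415 protein-coding genes past the filter. The other members were Kcnj12, Kcnc1 and Kcnf1, higher in replicate 1, and Kcne1, Kcnk10 and Kcnd1, higher in replicate 2. More than 2-fold higher in replicate 1 was 1 member, Kcnj12, against 1.24% of all genes past the filter, and more than 2-fold higher in replicate 2 was 1 member, Kcne1, against 2.34%. Computed from TPM with a pseudocount of 0.1, 0 members were beyond 2-fold in either direction. Before the pseudocount was added, Kcnj12 had 0.76 and 0.35 TPM, more than 2-fold apart. Kcne1 had 0.74 and 1.32 TPM, less than 2-fold apart. Kcnd1, with a log2 ratio of -0.52 from counts, had the higher TPM in replicate 1. Scaled on the spike-ins, the median of all genes moved to -0.57 and that of the members to -0.54, so directions here are relative to the bulk of genes.

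Kcnj12, the gene of the muscle inward rectifier Kir2.2, had 51 and 13 expected counts, 0.76 and 0.35 TPM, and a log2 ratio of 1.09. All 8 skeletal muscle markers were higher in replicate 1 as well, with a summed level of 2016.93 and 189.28 TPM, and their part in Kcnj12 was not tested. Kcne1 had 35 and 42 expected counts and a log2 ratio of -1.01. The 2-fold differences of both Kcnj12 and Kcne1 thus rest on few reads. Stomach epithelium markers were higher in replicate 2 in 6 of 6 cases, summing to 4658.22 and 7526.46 TPM with a median log2 ratio of -0.73, as were both parietal cell markers, at 67.38 and 113.31 TPM. Smooth muscle markers summed to 4570.3 and 5603.15 TPM and enteric neuron markers to 166.78 and 157.82 TPM. The part of these markers in the ratios of the members was not tested. Family medians of the log2 ratio lay between -0.25 for the voltage-gated accessory subunits, where 7 of 11 were higher in replicate 2, and 0.32 for the calcium-activated accessory subunits.

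**Figure D4:**
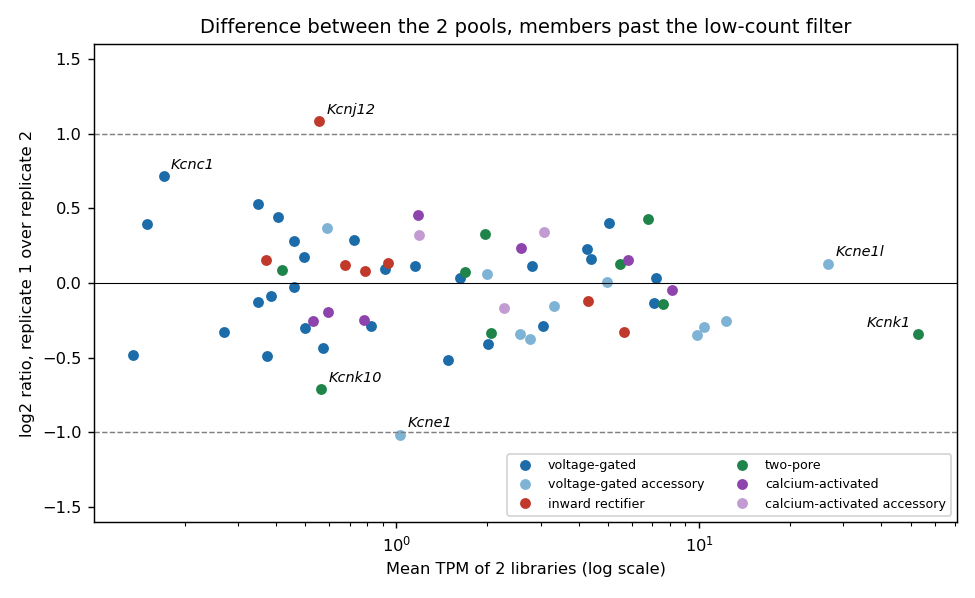
Log2 ratio of replicate 1 over replicate 2 against mean TPM (log axis) for the 65 members past the low-count filter, coloured by family; dashed lines mark 2-fold. Kcnj12 lies above and Kcne1 below the dashed lines, both near or under 1 TPM, while every member above 5 TPM stays within 0.5.

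Marker lists for cell types of the stomach were checked against the labelled tissue. Smooth muscle (6 of 6 genes), interstitial cells of Cajal (3 of 3, 115.1 and 132.33 TPM), glia (4 of 4, 36.98 and 43.37 TPM), endothelium (3 of 3, 83.46 and 90.38 TPM), pericytes (3 of 3, 62.46 and 61.66 TPM), macrophages (3 of 3, 92.29 and 82.71 TPM) and stomach epithelium (6 of 6) were all detected. Heart muscle markers were detected in 2 of 4 cases and summed to 32.85 and 40.6 TPM, with Myl7 at 26.28 and 36.07, Tnni3 at 6.0 and 4.26 and Myh6 at 0.42 and 0.12 TPM. Library totals were 44567153 and 25677702 expected counts, of which spike-ins took 3.08% and 2.05%. Detected members ranged from 59 and 32 expected counts (Kcnk7) to 3117 and 2263 (Kcnk1).

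Transcript shares, which the quantification assigns from reads shared among transcripts, could be compared for the 7 of 14 members with a mean of 5 TPM or more that had more than 1 transcript. In 6 of them the same transcript led in both libraries. In Kcnma1, with 15 transcripts, the leading one, 3747 bases long, held 55.7% and 64.3% of the TPM, and Kcnma1-201 held 12.9% and 13.0%. Kcnip1-201 held 85.8% ± 3.98 (SD, n = 2) and Kcne4-201 74.5% ± 3.54. Kcnh2-202 held 51.1% and 40.6% of Kcnh2, against 28.0% and 25.9% for the longer Kcnh2-201. Kcnh2-204, annotated as a processed transcript and not as protein-coding, held 12.13% and 33.55%, above Kcnh2-201 in replicate 2. Kcnh2-203, of the same type, held 8.77% in replicate 1 and 0 in replicate 2. Kcnj15-204 held 29.4% and 38.2% among 13 transcripts, and Kcns3-201 held all of the TPM of Kcns3. In Kcne3 the leading transcript differed: Kcne3-204 and Kcne3-201 held 36.3% and 36.2% in replicate 1 and 28.9% and 40.2% in replicate 2, a difference between libraries that stands on 47.26 to 116.2 expected counts per transcript.

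**Figure D5:**
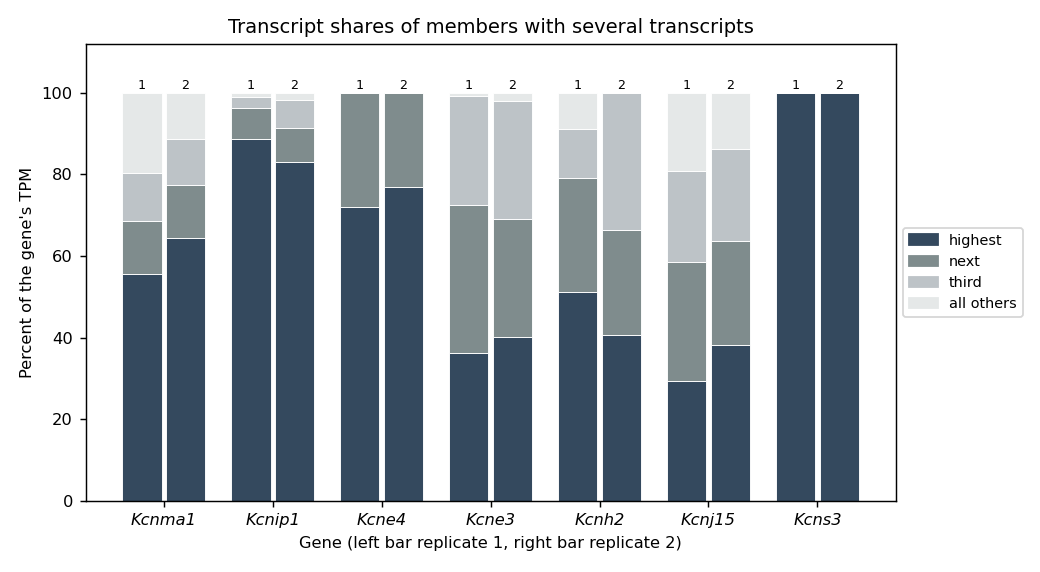
Percent of each gene's TPM held by its highest, next and next transcripts and all others together in replicate 1 (left bar) and replicate 2 (right bar), for the 7 members with a mean of 5 TPM or more and several transcripts; bars stack from 0 and have no error since each is 1 library. One transcript holds most of Kcnip1, Kcne4 and Kcns3 in both libraries, while Kcne3 and Kcnj15 are spread over several.

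Some members lie within 100 kb of each other. Of these, Kcnk5 and Kcnk16 were both detected, as were Kcnip1 and Kcnmb1, which overlap. Kcna6 was detected at 2.84 and 2.76 TPM while Kcna1, 61.94 kb away, had 0.50 and 0.42 TPM. The cluster of Kcna3, Kcna2 and Kcna10 on chromosome 3 had no detected gene, and the pairs Kcnj9 with Kcnj10, Kcnj16 with Kcnj2 and Kcnj5 with Kcnj1 had none either. Kcne1 lies 47.85 kb from Kcne2, which was above the threshold in both libraries.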

How the data were processed

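Per the labels' protocols, RNA longer than 200 nt was isolated with the mirVana kit, libraries were made from 10 ng of it with spike-in RNAs added, and a manual of the SMARTer Ultra Low kit is cited. For each library there are deposited tables of genes and of transcripts (mm10, annotation M4, as their text files state); which aligner and quantifier made them is not given in the sources. In these, the expected count is the authors' estimate of the reads of a feature, which need not be whole. TPM and posterior mean TPM, and FPKM, are the authors' deposited length-corrected levels. The percent of a gene held by each transcript was also deposited by the authors; shares given here were computed from TPM.

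Of 43346 Ensembl genes, 42462 matched a GENCODE M21 symbol. Counts were rounded, passed through filterByExpr (1 group) and scaled in edgeR 4.0.16 under R 4.3.3 by TMM (factors 1.01 and 0.992), with a prior count of 2; spike-ins stayed out of library sizes. The step was tested on simulated data. Family medians used a pseudocount of 0.1. Pore codons came from GENCODE M21 coding sequence and promoters from RefSeq (GRCm38.p6; the highest CpG ratio among a gene's listed promoters; motifs in any of them). Computations used Python 3.11.15, pandas 2.3.3, numpy 2.4.6 and matplotlib 3.10.9, and DESeq2 1.42.0 gave an alternative scaling. A count of 0 allows up to 3 counts, and counts cover counting error only.

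The members, families and lists were chosen with earlier results of these data known. Named were members with a mean of 5 TPM or more, the 4 highest and all members at 0 of each family, those with a mean within 20% of 1 TPM, those beyond 2-fold with a mean of 30 counts, the left-out genes and the partners. Other named members, and the promoters and pore sequences shown, were picked after their values were seen. Trpc4ap was dropped from the other cation channels after its value was seen, as it encodes no channel. Values of some members, and some sequences, are not reported here; these members stay in all counts, medians and sums.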

Additional observations from a re-analysis of the deposited data

Results flagged for a closer look

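Reads were also assigned to antisense genes named after potassium channel genes, which are outside the protein-coding members. Kcnq1ot1, the imprinted long RNA antisense to the left-out gene Kcnq1, had 11129.61 and 5084.94 expected counts in replicates 1 and 2 and a mean of 3.905 TPM, where no reads at all would allow up to 3 counts. It shares 121 bases with the exons of Kcnq1, 2.96% of them. Kcnd3os, antisense to Kcnd3, had 21.33 and 10.11 expected counts and a mean of 0.785 TPM, and it shares 1.72% of the exon bases of Kcnd3.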

How the results depend on the processing

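The count of 34 detected members lay between 26 and 45 under the other thresholds, units and libraries tried, except at 5 TPM, where it was 13. The two-pore minus voltage-gated median difference (1.05) kept its direction under every alternative tried; it was 0.52 with a pseudocount of 1 and 0.80 over detected members, and 0.94 to 1.15 with 1 library left out. The voltage-gated minus inward rectifier difference (0.39) was 0.13 with a pseudocount of 1, 0.21 with posterior mean TPM, 0.25 with the left-out genes added and -0.64 over detected members alone, where only 2 inward rectifiers remain. The calcium-activated minus two-pore difference (0.24) was 1.36 without the Kcnt and Kcnu genes and ran from -0.15 without replicate 1 to 0.62 without replicate 2. Mean summed levels changed with the unit: with posterior mean TPM they were 51.65 for voltage-gated genes, 16.02 for inward rectifiers and 20.61 for calcium-activated genes; with FPKM 32.86, 9.40, 13.31 and, for two-pore genes, 54.03; with the left-out genes 56.75, 64.355 and 23.89. The median log2 ratio of members (0.03) turned to -0.54 with spike-in scaling, which moved all genes by -0.57, and to -0.077 on TPM with a pseudocount of 0.1. More than 2-fold higher in replicate 1 were 5 members with no filter, 0 with spike-in scaling and 0 on TPM with that pseudocount; more than 2-fold higher in replicate 2 were 6, 4 and 0. The cause of these shifts was not tested. Partner genes detected were 6 or 7. Posterior mean TPM lowered the leading share of Kcnma1 to 46.6%, of Kcnip1 to 78.8%, of Kcnj15 to 23.5% and of Kcns3 to 90.9%. Genes with a few reads, such as those under 0.1 TPM, cannot be ranked at this depth. No paired analysis was possible because both libraries belong to 1 group.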
